A study of Mus musculus with 7 samples.

Results

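The variable segments of the immunoglobulin heavy chain locus (Ighv) were described in whole bone marrow from female mice, 5 to 6 months old. The mice were Aim2 knock-out (KO, 3 libraries) or wild type (WT, 4 libraries), and neither strain nor the knock-out allele is given in the labels. Of 113 Ighv genes that GENCODE M21 types as functional variable genes, the 88 with at least 10 estimated reads in at least 1 library were taken as members, among 35498 genes in all. The choice used read numbers and no group label, but KO libraries held more Ighv reads. So 7 members reached the minimum in KO libraries only (Ighv1-11, Ighv1-31, Ighv2-4, Ighv2-6-8, Ighv5-15, Ighv12-3 and Ighv8-13) and 1 in a WT library only (Ighv1-56). The members closest above the minimum were Ighv8-13 with 11, Ighv1-71 with 11.3 and Ighv2-6-8 with 12 reads in their best library, and the closest below it were Ighv1-37 with 9, Ighv5-2 with 8 and Ighv8-6 with 6. The 25 genes below the minimum together had 11.0 to 29.6 reads per library. By its title, the study concerned marrow adipocyte formation after loss of Aim2, which encodes a sensor of cytosolic DNA.

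A B cell builds its heavy chain gene by joining 1 variable (V), 1 diversity and 1 joining segment in the developing cell, and the joined V segment encodes most of the antigen-binding surface. The progeny of that cell keep the same V segment, so a clone of plasma cells, which secrete antibody and carry very large amounts of immunoglobulin RNA, can put 1 segment far above the others in a tissue. Bone marrow is both the place where new B cells arise and a home of long-lived plasma cells. V segments are grouped into families by sequence similarity, and the first number in a symbol is the family. A share of Ighv reads is a share of RNA and not of cells, and in these bulk libraries fewer cells of a type and less RNA per cell cannot be told apart.

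All 88 members lie on the minus strand of chromosome 12 of GRCm38, between positions 113588267 and 116000461, with the joining segments on the low-coordinate side. The members fell into 14 families, of which Ighv1 was the largest with 44 members. The annotated transcripts hold the unjoined V segment, whose V exon codes for the body of the variable domain and ends where the diversity segment is joined. The ends of the V exons of the 7 segments with the most reads in a library are shown so that the leading segments can be compared. Each run is the last 60 bases of the GENCODE M21 V exon, 5′ to 3′ on the minus strand, and capitals mark the codon of the conserved cysteine before the junction. They lie at chr12:114991108-114991167 (Ighv1-47), chr12:115294062-115294121 (Ighv8-8), chr12:113838526-113838585 (Ighv5-16), chr12:115952538-115952597 (Ighv1-82), chr12:114357759-114357818 (Ighv13-2), chr12:115802648-115802707 (Ighv1-74) and chr12:114048241-114048300 (Ighv11-2).
Ighv1-47: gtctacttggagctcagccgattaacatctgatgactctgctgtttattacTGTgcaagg
Ighv8-8: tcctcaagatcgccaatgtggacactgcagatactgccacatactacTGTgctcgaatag
Ighv5-16: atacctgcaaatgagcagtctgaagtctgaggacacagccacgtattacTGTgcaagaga
Ighv1-82: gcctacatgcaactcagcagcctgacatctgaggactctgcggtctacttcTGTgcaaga
Ighv13-2: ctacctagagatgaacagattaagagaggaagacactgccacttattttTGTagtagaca
Ighv1-74: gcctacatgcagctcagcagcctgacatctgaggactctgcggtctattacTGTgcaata
Ighv11-2: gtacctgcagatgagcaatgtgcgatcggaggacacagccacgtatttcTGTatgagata
Over the whole V exon, the 21 pairs among these 7 segments were 53.8 to 88.5% identical, with Ighv1-82 and Ighv1-74 the most alike.

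Similar segments limit how far reads can be assigned to 1 member, because Salmon splits a read that fits several transcripts. The median identity of transcripts was 85.5% within a family and 60.3% between families. At 97% identity or more, 12 members fell into 5 groups, which were Ighv14-1, Ighv14-2 and Ighv14-4; Ighv2-2, Ighv2-4 and Ighv2-5; Ighv1-50 and Ighv1-69; Ighv1-52 and Ighv1-61; and Ighv1-62-2 and Ighv1-71, which were 100% identical. Values of these 12 are uncertain between the members of a group. A level here also assumes the alleles of the GENCODE reference. Whether the mice carried another Ighv haplotype, and whether reads of mutated segments were lost or moved to similar ones, was not tested. Members whose summed reads were not whole (by more than 0.01) numbered 41 to 43 in KO and 21 to 28 in WT libraries and held 75.6 to 87.9% and 43.7 to 68.9% of the member reads. The part of this difference in the results was not tested.

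The libraries held 20300468 to 21099972 estimated reads, and Aim2 itself had 157, 47 and 59 reads in KO against 601, 573, 535 and 533 in WT (level log2 fold change -2.76 ± 0.38, SE; adjusted p = 0.0280, from the quasi-likelihood test of edgeR, Benjamini-Hochberg over 14238 genes). It passed in 1 of 7 fits that left out a library, that without KO 1, with an adjusted p of up to 0.0970 in the other edgeR fits. Skeletal muscle transcripts ranged most, at 54.7, 703 and 5537 summed CPM over 8 genes in KO and 939 to 1954 in WT. CPM are counts scaled to a library size of 1e6 after TMM adjustment. Whether libraries are separate animals is not in the labels, so p-values measure only the spread between these libraries, which may be technical.

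Ighv transcripts were more abundant in every KO library than in any WT library. Their summed level was 787, 1305 and 1077 CPM in KO 1, 2 and 3, and 152, 418, 501 and 445 CPM in WT 1, 2, 3 and 4. The groups did not overlap, and WT 1 was the lowest library. Means were 1056 ± 260 (SD, n = 3 KO libraries) and 379 ± 155 (SD, n = 4 WT libraries) CPM, a ratio of geometric means of 3.00 (log2 difference 1.58 ± 0.45, SE). The two-sided exact permutation test over 35 assignments gave p = 0.0571, the smallest this design allows, so no single value per library can pass 0.05 here. Without WT 1 the log2 difference was 1.19. In reads, the members held 16770, 27161 and 23807 in KO and 2837, 8620, 10342 and 9308 in WT, or at most 0.129% of a library.

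The light chain and the constant part of the heavy chain showed the same separation. Summed variable segments of the kappa light chain were at 1911, 2459 and 2536 CPM in KO and 367, 986, 1418 and 979 CPM in WT, a 2.71-fold difference without overlap. Heavy chain constant genes were at 5776, 9531 and 8064 CPM in KO and 2046, 3609, 5020 and 3941 CPM in WT, a 2.19-fold difference without overlap. For every 100 heavy chain constant reads there were 13.6, 13.7 and 13.4 Ighv reads in KO and 7.43, 11.6, 9.98 and 11.3 in WT, which did not overlap (exact permutation p = 0.0571). For every 100 kappa variable reads there were 41.2, 53.1 and 42.5 Ighv reads in KO and 41.4, 42.4, 35.3 and 45.5 in WT, and these overlapped (exact permutation p = 0.457). After Benjamini-Hochberg adjustment over the 7 totals and ratios computed, the smallest p of these exact tests was 0.0667.

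**Figure D1:**
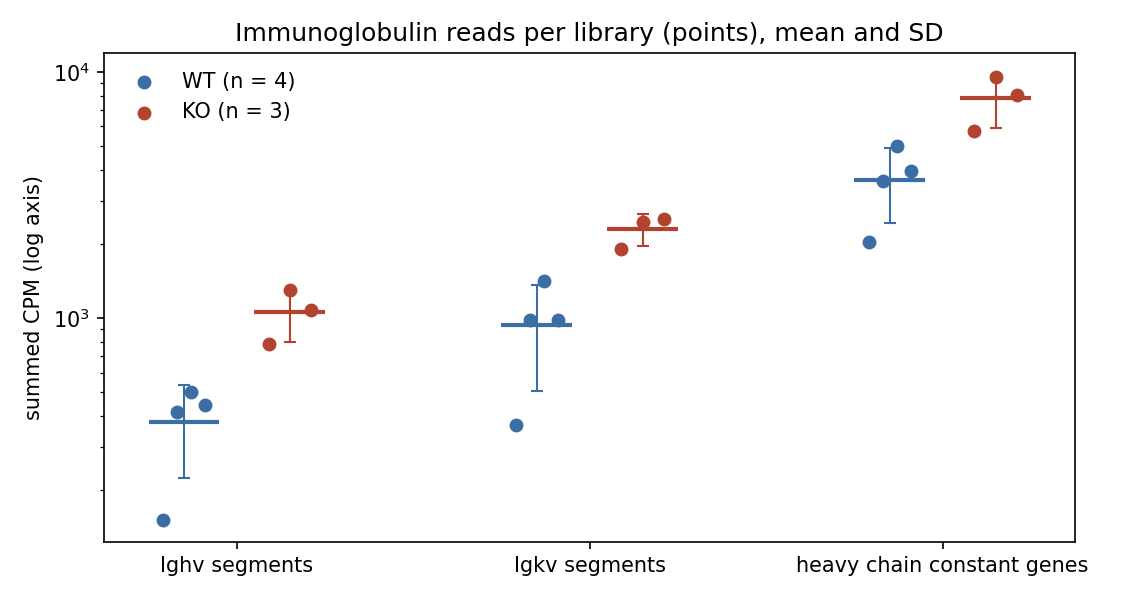
Summed CPM (log axis) of Ighv segments, Igkv segments and heavy chain constant genes, with 1 point per library, the group mean (line) and SD (bar) for 3 KO and 4 WT libraries. In each of the 3 classes every KO point lies above every WT point, and WT 1 is the lowest point, at 152 CPM for Ighv.

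Marker genes of B cells and most of those of plasma cells lay on opposite sides in the same libraries. All 14 genes of the B lineage list had a level estimate below 0, with a median log2 fold change of -0.97 against -0.01 over all 14238 tested genes. In edgeR none passed the adjusted threshold, 14 were lower at an unadjusted p under 0.05 (5.01% of all tested genes were), and DESeq2 called 12, all lower (1.03% of all tested genes). Their summed level was 409, 238 and 361 CPM in KO and 633, 524, 705 and 797 CPM in WT, without overlap. Cd79a, a signalling chain of the B cell receptor, was at 69.7, 43.8 and 65.7 CPM in KO and 109, 96.0, 120 and 147 CPM in WT (level log2 fold change -0.98 ± 0.19, SE; edgeR adjusted p = 0.0826). Cd79b, its partner chain, had a level log2 fold change of -0.95. The lists were chosen with results of these data known, so their direction is a description.

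Genes of early B cell development also lay lower in KO by estimate. All 11 of the list were below 0 (median -1.07). In edgeR none passed the adjusted threshold, and 6 were lower at an unadjusted p under 0.05 (5.01% of all tested genes). DESeq2 called 4, all lower (1.03% of all tested genes). Il7r, the receptor chain through which progenitors receive IL-7, was at 9.34, 7.54 and 10.4 CPM in KO and 15.6, 19.7, 16.9 and 29.0 CPM in WT (level log2 fold change -1.16, edgeR adjusted p = 0.0826). Bach2, a transcription factor of B cells, was at 10.2, 6.15 and 11.5 CPM in KO and 21.4, 20.2, 18.3 and 30.1 CPM in WT (-1.27, edgeR adjusted p = 0.0808). Dntt, which adds untemplated bases at the junctions, and Myb, a factor of many progenitors, had estimates near 0 of -0.01 and -0.17, and both were above 0 when length-scaled TPM values were compared. TPM scaling moved the median of all genes to 0.13 with a pseudocount of 0.1 and to 0.10 with a pseudocount of 1, on the log2 scale.

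Most plasma cell genes lay on the other side. Of 14, 12 had an estimate above 0 (median 0.39). In edgeR none passed the adjusted threshold, 8 were higher and 1 lower at an unadjusted p under 0.05 (6.45 and 5.01% of all tested genes), and DESeq2 called 2 higher and 1 lower (1.82 and 1.03%). Summed, they were at 956, 1186 and 1099 CPM in KO and 625, 767, 929 and 802 CPM in WT, without overlap. Jchain, Xbp1 and Txndc5 held most of this sum in every library, so it says little of the other members. Jchain, which links IgM and IgA into polymers, was at 484, 613 and 488 CPM in KO and 281, 352, 459 and 328 CPM in WT (level log2 fold change 0.57 ± 0.17, SE; edgeR adjusted p = 0.227). Xbp1, a transcription factor of the secretory programme, and Txndc5, which helps proteins fold in the endoplasmic reticulum, had estimates of 0.49 and 0.47. The 2 genes of the list with an estimate below 0 were Slamf7 and Irf4 (-0.09). Slamf7 was at 6.62, 6.34 and 6.97 CPM in KO and 8.68, 11.2, 14.5 and 17.8 CPM in WT (-0.98, edgeR adjusted p = 0.137). T cell genes were below 0 in 8 of 8 (median -0.33; 61.7 to 79.9 summed CPM in KO and 83.1 to 104 in WT), erythroid genes in 8 of 8 (median -0.36), and neutrophil genes were above 0 in 7 of 8 (median 0.22). Of the 8 genes of germinal centres and class switching, 6 were tested, and all 6 had estimates above 0 (median 0.11), with summed levels of 102 to 113 CPM in KO and 86.1 to 98.4 CPM in WT, without overlap. In edgeR none of these 4 lists had a gene past the adjusted threshold. At an unadjusted p under 0.05 they had 4 lower T cell genes and 1 lower erythroid gene (5.01% of all tested genes were lower). They also had 0 neutrophil genes and 1 higher germinal centre gene (6.45% of all tested genes were higher). DESeq2 called 2 T cell genes and 1 erythroid gene, all lower (1.03% of all tested genes), and 0 in the other 2 lists. The part of these marker levels in the Ighv result was not tested.

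**Figure D2:**
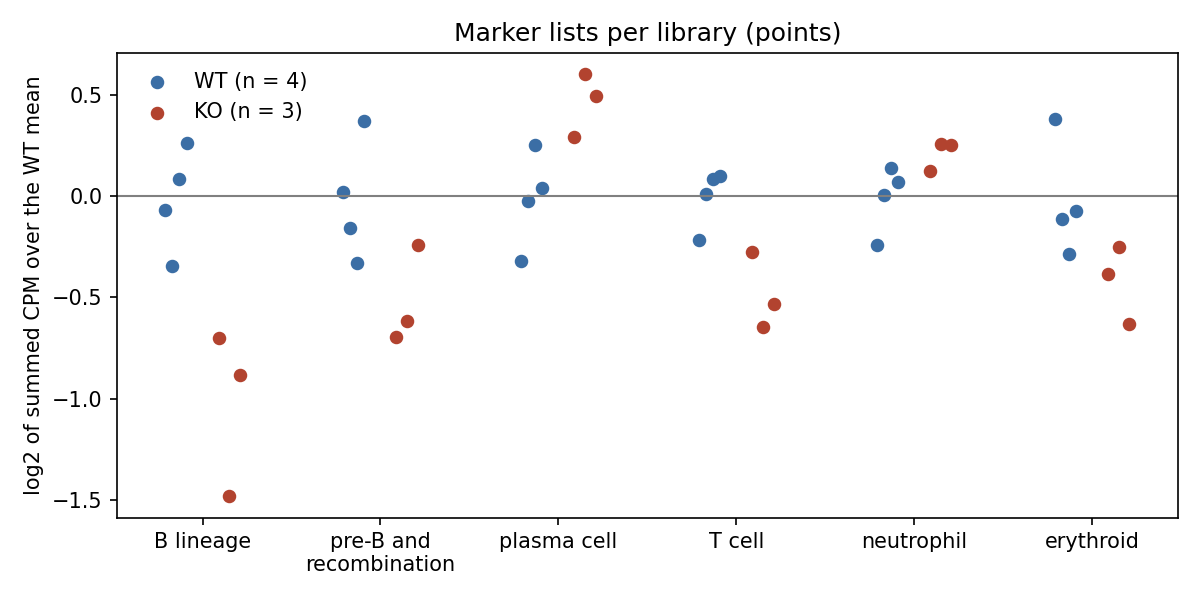
Summed CPM of 6 marker lists in each library (1 point each), as log2 of the ratio to the mean of the 4 WT libraries. B lineage points of KO lie below all WT points and plasma cell points of KO lie above them, while pre-B points overlap.

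Across single segments, the higher total was spread over most members. The filter on low reads kept 80 of the 88, and the other 8 (Ighv2-4, Ighv2-6-8, Ighv5-15, Ighv12-3, Ighv1-20, Ighv1-56, Ighv1-71 and Ighv8-13) had at most 47.5 reads in any library. Among the 80, Ighv1-11 and Ighv1-31 were under 10 reads in all 4 WT libraries, and none was under 10 in all 3 KO libraries, so the counts that follow describe the members kept. Of the 80, 69 had an estimate above 0 on the log2 scale, and the median was 1.58. Over all tested genes 47.3% were above 0. At an unadjusted p under 0.05, 41 of the 80 were higher and 2 lower in KO (Ighv13-2 and Ighv1-50), or 51.3% and 2.5%, where the background over all genes was 6.45% and 5.01%. Every KO library lay above every WT library in 21 of the 80 (26.3%, background 6.95%), and in none did every KO library lie below every WT library (background 5.94%). With no filter on low reads all 88 members were tested, and 76 had an estimate above 0. Of the 49 with at least 10 reads in every library, 43 had.

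In the level comparison 4 segments were called higher in KO (5% of the 80, where the background is 0.478%) and 0 lower (background 0.169%). The fit of genes with at least 10 reads in every library called 3 of 49 members higher and 0 lower. In that fit 70 of 13290 genes were called higher and 21 lower. Its 3 calls were Ighv1-34, Ighv10-1 and Ighv8-12. The 4 segments of the level comparison were Ighv1-11, a member through KO libraries only, and Ighv1-15, Ighv1-34 and Ighv10-1. Ighv1-11 and Ighv1-15 were under 10 reads in some library and so were not tested in the other fit. None of the 4 took more than 1.44% of Ighv reads in any library. Their V exons, of 305 bases in the Ighv1 members and 313 in Ighv10-1, are shown as the sequences behind these calls, each by its last 300 bases from GENCODE M21 on GRCm38, 5′ to 3′ on the minus strand. They lie at chr12:114612243-114612542 (Ighv1-11), chr12:114657353-114657652 (Ighv1-15), chr12:114851190-114851489 (Ighv1-34) and chr12:114479005-114479304 (Ighv10-1). In Ighv1-11 and Ighv1-15, capitals mark the 62 of 300 bases at which this pair differs, and in the others the codon of the conserved cysteine.
Ighv1-11: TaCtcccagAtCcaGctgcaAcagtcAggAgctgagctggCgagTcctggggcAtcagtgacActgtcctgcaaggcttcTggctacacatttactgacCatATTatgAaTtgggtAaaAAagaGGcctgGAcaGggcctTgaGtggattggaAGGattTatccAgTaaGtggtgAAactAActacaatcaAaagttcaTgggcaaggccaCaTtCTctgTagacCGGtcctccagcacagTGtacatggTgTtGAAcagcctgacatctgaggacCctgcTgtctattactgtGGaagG
Ighv1-15: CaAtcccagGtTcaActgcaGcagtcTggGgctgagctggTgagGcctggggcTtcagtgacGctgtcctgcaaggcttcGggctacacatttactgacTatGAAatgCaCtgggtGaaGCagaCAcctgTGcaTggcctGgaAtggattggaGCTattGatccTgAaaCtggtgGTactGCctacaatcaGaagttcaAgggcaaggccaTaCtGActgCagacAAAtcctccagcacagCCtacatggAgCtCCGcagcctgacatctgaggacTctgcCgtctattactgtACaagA
Ighv1-34: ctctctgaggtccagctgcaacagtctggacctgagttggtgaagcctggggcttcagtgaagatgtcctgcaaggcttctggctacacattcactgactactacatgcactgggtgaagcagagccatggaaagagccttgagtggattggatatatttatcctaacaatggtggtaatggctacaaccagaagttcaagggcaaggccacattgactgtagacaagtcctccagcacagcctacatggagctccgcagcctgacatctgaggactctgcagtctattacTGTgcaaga
Ighv10-1: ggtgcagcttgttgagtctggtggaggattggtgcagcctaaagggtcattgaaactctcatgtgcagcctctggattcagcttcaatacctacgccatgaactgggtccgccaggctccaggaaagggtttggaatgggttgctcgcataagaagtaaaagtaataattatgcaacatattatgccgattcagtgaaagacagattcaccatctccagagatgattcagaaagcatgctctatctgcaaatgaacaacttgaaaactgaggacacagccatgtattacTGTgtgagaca
The 3 Ighv1 members were 79.3 to 86.2% identical in these exons, and each was 57.2 to 59.7% identical to Ighv10-1. Over whole transcripts, the nearest other member was Ighv1-76 for Ighv1-11 (83.0% identical), Ighv1-12 for Ighv1-15 (88.4%), Ighv1-22 for Ighv1-34 (96.6%) and Ighv10-3 for Ighv10-1 (96.7%).

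Ighv1-11 (ENSMUSG00000102888.1) had 37.1, 132 and 188 reads in KO and 4, 2, 7 and 9 in WT, or 1.74, 6.34 and 8.51 CPM against 0.214, 0.0969, 0.339 and 0.431 CPM. All WT values were under the 10-read minimum, so it became a member through KO, where it is high, and had to differ. Its log2 fold change of 4.32 ± 0.61 (SE; edgeR adjusted p = 0.0296) is given as a description. Ighv1-15 (ENSMUSG00000103254.1) was at 8.03, 4.61 and 11.4 CPM in KO and 0.375, 0.727, 0.775 and 1.82 CPM in WT (3.10 ± 0.48, SE; edgeR adjusted p = 0.0382). Its lowest KO value was above its highest WT value, WT 4.

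Ighv1-34 (ENSMUSG00000093955.2) was at 11.0, 16.8 and 12.3 CPM in KO and 2.19, 5.74, 4.18 and 4.26 CPM in WT (1.7 ± 0.28, SE; edgeR adjusted p = 0.0488). Its groups did not overlap and its KO values were the most even of the 4. Ighv10-1 (ENSMUSG00000095981.1) was at 10.4, 8.70 and 4.07 CPM in KO and 1.13, 1.94, 2.42 and 1.34 CPM in WT (2.17 ± 0.36, SE; edgeR adjusted p = 0.0490), again without overlap. All 4 estimates were above the 1.58 of the summed level, and that of Ighv1-34 was the nearest to it.

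These calls sat near the threshold. Leaving out KO 2, WT 2 or WT 3 left 0 calls. At an unadjusted p under 0.05, 31 of 82, 37 of 73 and 40 of 80 tested members were higher in these fits, and 0, 0 and 1 lower. Over all genes 1151 of 14419, 1369 of 14124 and 1355 of 14169 had such a p in either direction. Leaving out KO 3, WT 1 or WT 4 left 2 calls, and leaving out KO 1 left 4, of which 1 was among the 4 above. Calls over all tested genes also fell, from 92 with all libraries to 22 without KO 2, 17 without WT 2 and 24 without WT 3. They were 65 without KO 3, 65 without WT 1, 51 without WT 4 and 42 without KO 1. Each of the 4 segments passed in 1 of these 7 fits (Ighv1-11 without KO 1, Ighv10-1 without KO 3, Ighv1-34 without WT 1 and Ighv1-15 without WT 4), with adjusted p up to 0.105 (Ighv1-11), 0.136 (Ighv1-15), 0.179 (Ighv1-34) and 0.176 (Ighv10-1), all from edgeR. DESeq2 called 18 members higher and 0 lower (background 1.82% higher), and edgeR with no filter called 8 (background 0.432%), each set with all 4 among them.

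**Figure D3:**
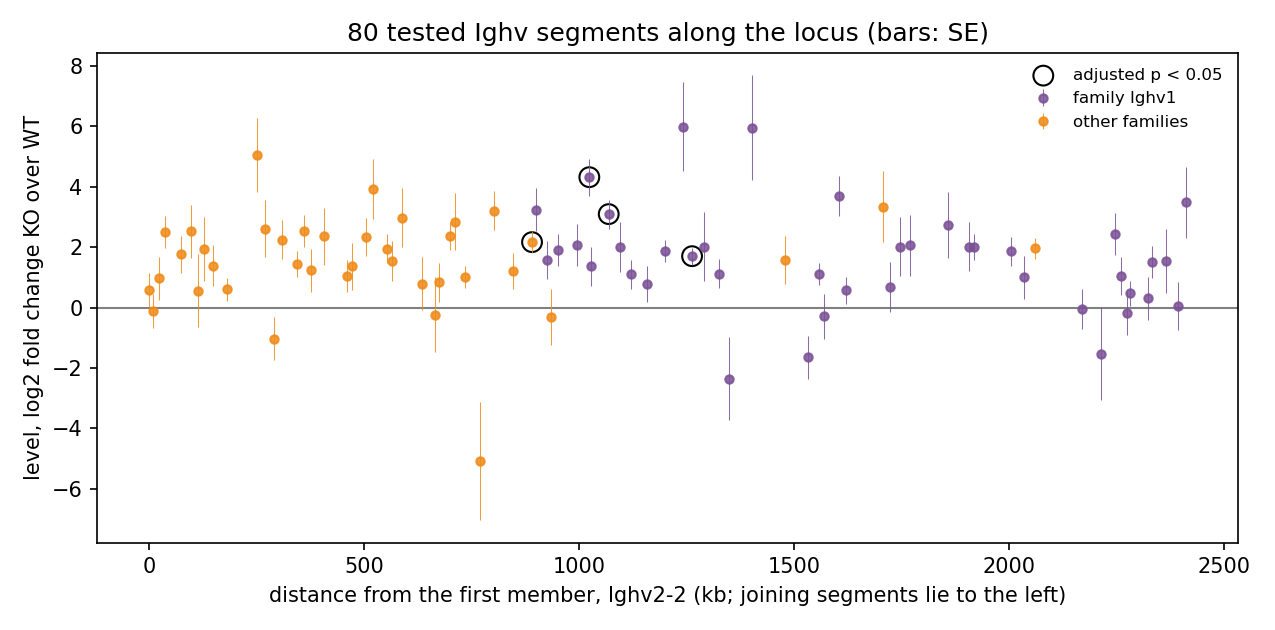
Log2 fold change of level, KO over WT, with SE bars, for the 80 tested segments by distance in kb from Ighv2-2, the member nearest the joining segments. Family Ighv1 is shown in 1 colour and all others in another, and rings mark the 4 with an adjusted p under 0.05. Of the points, 69 lie above 0.

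Relative usage, the share that a segment takes of all Ighv reads, was compared with the total set aside. No segment passed the adjusted threshold in edgeR (background 0.569%), and the smallest adjusted p was 0.0884, for Ighv1-11, which reached 10 reads in KO libraries only. Background shares here are over all tested genes, where genes outside Ighv keep the library size as their scale. At an unadjusted p under 0.05, 13 segments had a higher and 9 a lower share in KO (background 6.25 and 5.07%). DESeq2 called 8, of which 3 were higher (Ighv1-11, Ighv1-15 and Ighv1-54; background 1.7%) and 5 lower (Ighv1-50, Ighv1-55, Ighv1-78, Ighv2-9 and Ighv5-4; background 1.05%). Estimates lay on both sides, with 42 above and 38 below 0 and a median of 0.08. Without KO 3 edgeR called 1 segment, Ighv1-80 (lower), where 64 of 14378 tested genes were called. Without WT 4 it called 1, Ighv1-55 (lower), where 50 of 14143 were.

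The 10 segments with the smallest usage p had estimates in both directions. They were picked by p from these same reads, so a lack of overlap among them is a description and no further support. Over all tested genes, in CPM, every KO library lay above every WT library in 6.95% and below in 5.94%. Ighv1-11 took 0.221, 0.486 and 0.790% of Ighv reads in KO and 0.141, 0.0232, 0.0677 and 0.0967% in WT (usage log2 fold change 2.77 ± 0.55, SE). Ighv1-54 took 0.507, 1.44 and 0.958% in KO and 0.211, 0.209, 0.358 and 0.0860% in WT (2.15 ± 0.47, SE). Both shares were higher in each KO library than in each WT library, and both remained small in all. Ighv1-11 is a member through KO libraries only, with 4, 2, 7 and 9 reads in WT. Its WT shares rest on these few reads, and its difference is a description. Ighv1-15 took 0.353 to 1.05% in KO and 0.155 to 0.408% in WT (1.71), with KO 2 below WT 4.

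Ighv8-12 had the smallest SE of the 10, at 1.67, 1.34 and 1.55% in KO and 0.989, 1.18, 0.861 and 1.19% in WT (usage log2 fold change 0.52 ± 0.15, SE). Its groups did not overlap. On the other side, Ighv1-50 took 1.66, 0.178 and 1.19% in KO and 4.78, 5.14, 8.69 and 10.3% in WT (-2.87 ± 0.65, SE), again without overlap. Its near twin Ighv1-69 is 97.2% identical, so its share is uncertain. With near-identical segments summed, the usage log2 fold change of the pair was -2.14 ± 0.59 (SE; edgeR adjusted p = 0.210).

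Ighv5-4 took 0.209, 0.398 and 0.559% in KO and 0.811, 1.14, 1.05 and 1.62% in WT (-1.58 ± 0.35, SE). Ighv1-78 took 0.751, 0.494 and 0.739% in KO and 1.13, 0.893, 1.41 and 1.53% in WT (-0.92 ± 0.23, SE). Neither pair of groups overlapped. Ighv1-55 (2.30, 2.69 and 2.40% in KO against 4.58, 5.38, 5.89 and 2.61% in WT) and Ighv2-9 (0.0378 to 0.155% against 0.141 to 0.797%) overlapped between groups.

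The segment with the most reads was a different one in each of the 7 libraries. In KO 1 it was Ighv1-47, with 24.2% of Ighv reads, where its share in the other libraries was 0.0546 to 0.670%. In KO 2 it was Ighv8-8 with 17.4% (0.8 to 3.09% elsewhere). In KO 3 it was Ighv5-16 with 14.4% (0.271 to 1.02% elsewhere), followed by Ighv5-17, its neighbour among the members, with 10.1% (0.582 to 2.27% elsewhere). Each of these shares was seen in 1 KO library and not in the others.

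WT libraries had leaders of their own. In WT 1 it was Ighv1-82 with 14.7% (0.668 to 7.88% elsewhere), and in WT 2 Ighv13-2 with 12.5%. Ighv13-2 also took 8.15% in WT 4, but 0 to 0.143% in the 5 other libraries (usage log2 fold change -6.42 ± 1.88, SE; edgeR adjusted p = 0.234). In WT 3 it was Ighv1-74 with 22.2% (0.199 to 2.52% elsewhere).

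In WT 4, Ighv11-2 with 12.7% and Ighv1-53 with 12.4% were level. By read share Ighv11-2 was the most widely used, at 5.97, 2.96 and 7.15% in KO and 6.45, 5.68, 3.19 and 12.7% in WT, and it passed 5% in 5 of 7 libraries. Read shares favour longer transcripts. By TPM, which corrects for length, Ighv11-2 passed 5% in 1 library and Ighv1-80 in 3. By TPM the same segment led in 6 of the libraries, with 21.7% for Ighv1-47 in KO 1, 18.8% for Ighv8-8 in KO 2, 14.2% for Ighv5-16 in KO 3 and 25% for Ighv1-74 in WT 3, and in WT 4 Ighv1-53 led with 14.5% against 8.21% for Ighv11-2.

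In all, 17 segments exceeded 5% of Ighv reads in some library, 12 of them in 1 library only. Ighv11-2, Ighv1-50 and Ighv1-82 did so in 3 or more. By mean read share over the 7 libraries, the 12 highest were Ighv11-2 (6.30%), Ighv1-50 (4.56%), Ighv1-82 (4.40%), Ighv1-74 (4.01%), Ighv8-8 (3.95%), Ighv1-55 (3.69%), Ighv1-80 (3.69%), Ighv1-47 (3.68%), Ighv1-53 (3.57%), Ighv1-26 (3.31%), Ighv1-64 (3.15%) and Ighv13-2 (2.99%). By mean TPM share the order differed, with Ighv1-74 first, Ighv8-8 next and Ighv11-2 in place 7. The spread over libraries was larger than the gaps between neighbours in this order.

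**Figure D4:**
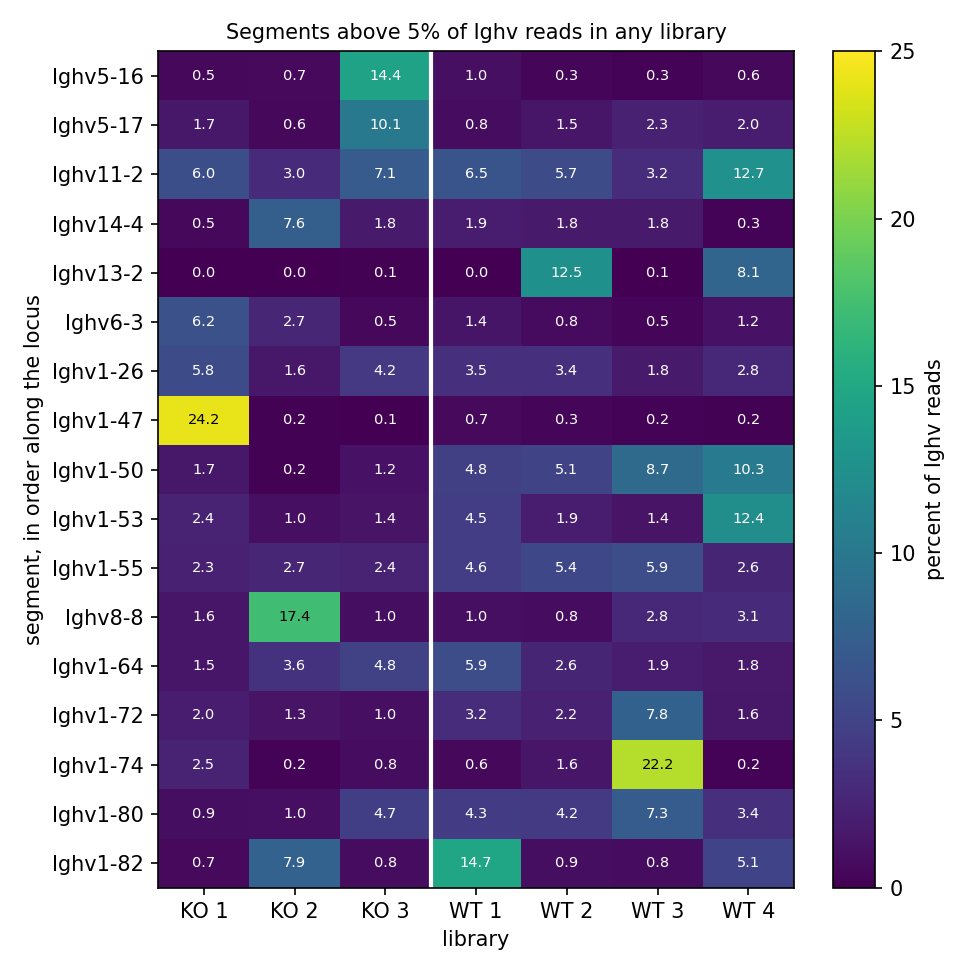
Percent of Ighv reads taken by each of the 17 segments above 5% in any library (rows, in order along the locus) in each of the 7 libraries (columns, KO left of the white line). Single bright cells such as Ighv1-47 in KO 1 (24.2%) and Ighv1-74 in WT 3 (22.2%) stand in rows that are dark elsewhere.

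By family, Ighv1 was the largest family in every library. It took 60.9, 45.9 and 43.8% in KO and 66.5, 50.3, 75.5 and 55.7% in WT, and the groups overlapped (difference -11.8 percentage points; exact permutation p = 0.229, 0.8 after Benjamini-Hochberg adjustment over 14 families). Without WT 3 the difference was -7.31 points, and without KO 1 it was -17.1. Shares of all 14 families overlapped between the groups, and the smallest adjusted p of these exact permutation tests was 0.8. Of the 41 tested Ighv1 members, 35 had a level estimate above 0, with a median of 1.58.

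Families with a single dominant library followed the leading segments. Ighv5 took 4.15, 2.39 and 26.4% in KO and 3.52, 3.73, 5.82 and 4.91% in WT, with Ighv5-16 and Ighv5-17 in KO 3 as the bulk. Ighv8 took 3.28, 18.9 and 2.77% in KO and 2.01, 2.09, 3.88 and 4.46% in WT, most of it Ighv8-8 in KO 2. Ighv14 took 1.5, 11.8 and 2.98% in KO and 4.23, 5.81, 2.91 and 1.51% in WT, with Ighv14-4 at 7.59% in KO 2. Leaving out the 1 high library turned the sign of the group difference in each of these 3 families.

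Ighv6 was high in KO 1, where it took 7.67% and Ighv6-3 alone 6.24%, against 3.23 and 1.46% in the other KO libraries and 1.53 to 2.62% in WT. Ighv13 consists of Ighv13-2 alone among the members, and Ighv11 of Ighv11-2. Ighv3 took 5.07, 4.46 and 3.74% in KO and 3.63, 4.34, 1.36 and 2.88% in WT, most of it Ighv3-6, which took 4.53, 4.14 and 3.16% in KO and 0.957 to 3.09% in WT. The family overlapped between groups, while Ighv3-6 did not.

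Ighv9 took 2.31, 3.71 and 4.21% in KO and 1.02 to 3.00% in WT, with Ighv9-3 leading it (1.67, 2.75 and 2.11% in KO). Ighv2 took 1.53 to 2.68% in KO and 1.69 to 6.77% in WT, with WT 1 the highest, where Ighv2-2 took 2.22%, Ighv2-3 1.66% and Ighv2-9-1 1.59%. Families Ighv4, Ighv7, Ighv10 and Ighv12, each under a mean of 2%, together took 4.05 to 6.48% in KO and 2.84 to 6.49% in WT. In summed CPM, which keeps the difference in total, every KO library lay above every WT library in Ighv1, Ighv2, Ighv3, Ighv4, Ighv5, Ighv6, Ighv8 and Ighv9, and the groups overlapped in the other 6. Among single tested genes, 6.95% had every KO library above every WT library.

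**Figure D5:**
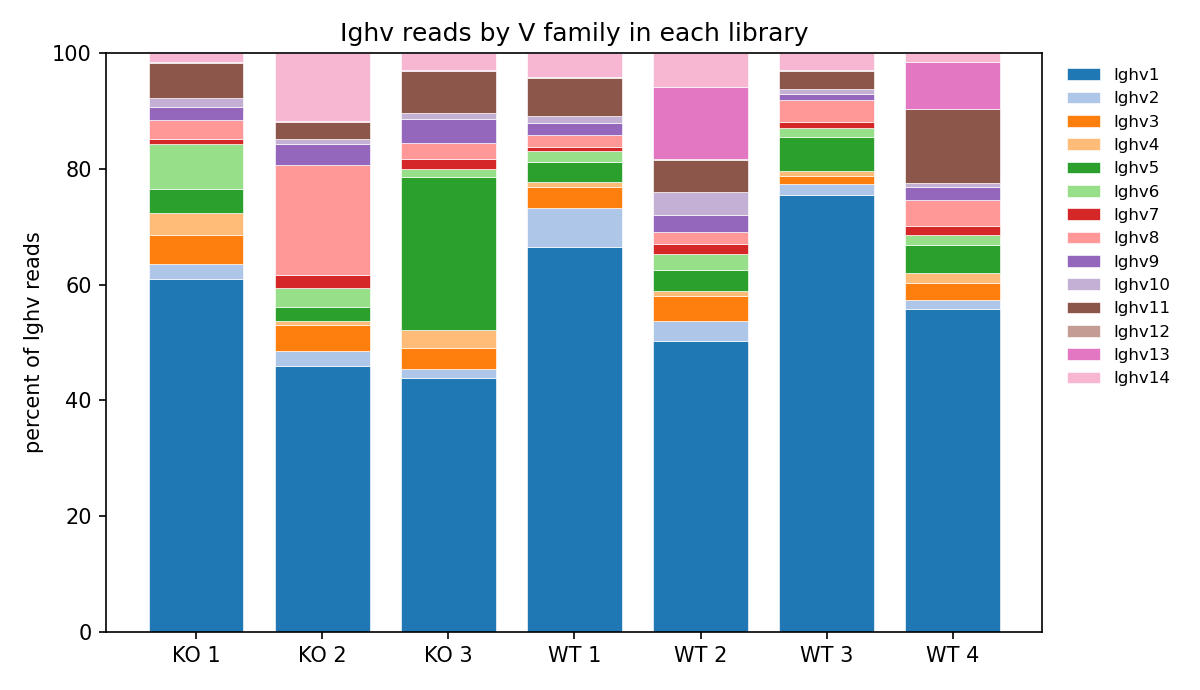
Stacked percent of Ighv reads by V family in each library, 3 KO and 4 WT, with each bar summing to 100. Ighv1 spans 43.8 to 75.5% of a bar, and Ighv5 in KO 3 (26.4%), Ighv8 in KO 2 (18.9%) and Ighv13 in WT 2 (12.5%) are the wide bands of single libraries.

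Diversity of usage overlapped between the groups by each index. The effective number of segments from Shannon entropy, the number of equally used segments that would give the same entropy, was 29.8, 33.0 and 35.8 in KO and 37.8, 42.4, 27.5 and 29.9 in WT (means 32.9 ± 3.00, SD, n = 3 and 34.4 ± 6.94, SD, n = 4; exact permutation p = 0.743). The inverse Simpson index, which weights the large segments more, was 12.7, 17.9 and 19.8 in KO and 22.0, 26.2, 12.8 and 16.8 in WT (exact permutation p = 0.514). KO 1 and WT 3, the libraries with the largest single segments, had the lowest index. The difference in effective number (Shannon) was -1.53 ± 3.88 (SE), so a difference of several segments in either direction was not detectable with these libraries.

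The 10 largest segments held 59.7, 55.2 and 57.4% of Ighv reads in KO and 54.4, 49.3, 63.8 and 63.0% in WT (exact permutation p = 0.971). The largest alone held 14.4 to 24.2% in KO and 12.5 to 22.2% in WT (exact permutation p = 0.400). Members with at least 10 reads numbered 77, 77 and 79 in KO and 52, 73, 69 and 64 in WT, without overlap. That count moves with Ighv depth, which also did not overlap. At a common depth of 2837 Ighv reads, that of WT 1, 81.0, 78.3 and 81.1 members were expected to be seen in KO and 77, 81.5, 80.8 and 82.0 in WT, and these overlapped (exact permutation p = 0.971). Over the 9 indexes and counts computed, the smallest p of these exact tests after Benjamini-Hochberg adjustment was 0.514.

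Usage profiles were compared between pairs of libraries. The overlap of 2 libraries, the sum over members of the smaller of their shares, was 42.9 to 51.4% for the 3 pairs of KO libraries and 51.6 to 65.4% for the 6 pairs of WT libraries. For the 12 pairs of a KO with a WT library it was 41.9 to 59.1%, which spans all 3 values within KO. As a check for a library present more than once, chi-square over its degrees of freedom on the member reads was 23.8 to 213, so no library repeated another. That check covers counting error only and says nothing of the groups.

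Position along the locus was compared in 3 equal parts of the ordered member list. The distal part, farthest from the joining segments (29 members, Ighv1-50 to Ighv1-85, 26 of them in family Ighv1) took 25.2, 50.2 and 27.6% of Ighv reads in KO and 53.9, 34.5, 67.8 and 50.9% in WT. The groups overlapped (exact permutation p = 0.114, 0.343 after Benjamini-Hochberg adjustment over the 3 parts). The proximal part (30 members, none in family Ighv1) took 21.4, 26.6 and 46.2% in KO and 25.4, 24.7, 16.8 and 26.3% in WT (exact permutation p = 0.400). The middle part took 53.4, 23.2 and 26.3% in KO and 20.7, 40.8, 15.4 and 22.8% in WT (exact permutation p = 0.343). KO 1 led there with Ighv1-47, and without KO 1 the difference in this part, which was 9.38 percentage points, was -0.186. All 4 called segments lay in the middle part, but level estimates were alike in all parts. At an unadjusted p under 0.05, 14 of 27 tested members were higher in KO in the proximal, 16 of 27 in the middle and 11 of 26 in the distal part. Lower were 0, 1 and 1, and the median log2 fold changes were 1.54, 1.86 and 1.32. Over all tested genes 6.45% were higher and 5.01% lower.

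The heavy chain constant genes show which antibody classes were transcribed beside the V segments, since gene-level reads do not link a V segment to its constant region. Ighm, the constant region of IgM, held the largest part of heavy constant reads in every library, at 72.4, 48.1 and 58.7% in KO and 63.6, 70.6, 77.7 and 77.2% in WT, and by TPM it was also the largest in each. Of 8 constant genes edgeR called 1 higher and 0 lower in level (0.478 and 0.169% of all tested genes). At an unadjusted p under 0.05, 4 were higher and 1 lower (6.45 and 5.01% of all tested genes). DESeq2 called 3 higher and 1 lower (1.82 and 1.03%). The call by edgeR was Ighg2c, at 502, 512 and 1112 CPM in KO and 34.3, 106, 115 and 105 CPM in WT (level log2 fold change 2.98 ± 0.44, SE; edgeR adjusted p = 0.0352). Every KO value was above every WT value, with KO 3 the highest and WT 1 the lowest. It passed in 1 of the 7 fits that left out a library, that without WT 1, and reached an adjusted p of 0.115 in edgeR without WT 2. The IgG constant genes resemble each other, so reads may have been split between them.

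The other classes differed in pattern. Ighg1 was at 76.6, 2633 and 732 CPM in KO and 111, 107, 26.8 and 48.0 CPM in WT (3.97 ± 1.00, SE; edgeR adjusted p = 0.160), and KO 1 lay among the WT values. Without KO 2 the estimate was 2.47 (edgeR adjusted p = 0.505). In KO 2 it held 27.6% of heavy constant reads. Ighg2b was at 526, 440 and 649 CPM in KO and 82.6, 272, 258 and 135 CPM in WT (1.53, edgeR adjusted p = 0.158), without overlap.

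Ighd, the constant region of IgD on mature naive B cells, was lower in each KO than in each WT library, at 45.5, 19.8 and 27.5 CPM against 76.3, 55.7, 97.1 and 85.6 CPM (-1.35 ± 0.29, SE; edgeR adjusted p = 0.106). Igha was at 358, 1124 and 645 CPM in KO and 417, 482, 491 and 370 CPM in WT (0.69), and Ighg3 at 88.2, 220 and 169 CPM against 24.2, 38.4, 129 and 155 CPM (0.87). Both overlapped between groups. Ighe had 1, 24 and 4 reads in KO and 13, 0, 13 and 9 in WT.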

How the data were processed

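RNA from bone marrow was sequenced as strand-specific mRNA libraries, per the labels' protocols. WT libraries carry the numbers of their titles; the names of the deposited WT files number them differently. The authors deposited, per transcript, an estimated count, a TPM value and the effective length, made with Salmon 1.7.0, with FastQC 0.11.9, DESeq2 and build GRCm38.p6 also named, per the submitters' processing notes. The annotation release is not given in the sources used here, nor are Salmon's options.

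The deposited estimated counts of 116546 transcripts were summed per GENCODE M21 gene and rounded (569 transcripts had no gene, with at most 0.0662% of reads). The deposited TPM values and effective lengths were used in alternatives. The reference holds unjoined V segments, so reads give segments and not clones.

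Levels were tested with edgeR 4.0.16 (R 4.3.3; filterByExpr, 14238 genes, TMM, quasi-likelihood, Benjamini-Hochberg, threshold 0.05). SE is the absolute log2 fold change over the square root of F. For usage, Ighv genes had the log of summed Ighv reads as offset. Values per library were tested by two-sided exact permutation (scipy 1.17.1). Identity is from edit distance.

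Segments were named if called, among the 12 highest mean shares, largest in a library, among the 10 smallest usage p, or leading a family of at least 2% mean share. Others were named after their values were seen, such as the members at the read minimum, those not tested, near-identical ones and those called by another fit. Members and lists were chosen with earlier results of these data known. Alternatives were DESeq2 1.42.0, other scalings and filters, limma 3.58.1 on log2(TPM + 0.1) and log2(TPM + 1), a length offset, summed near-identical segments, a replicate block and leaving out each library.

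On simulated counts the level comparison of KO with WT (14116 genes) called 68.7% of genes changed 2-fold and 91.9% changed 4-fold. The changed genes were all outside Ighv, so these shares do not tell how often a changed Ighv segment would be called. The usage comparison (14104 genes) called 6 of 10 segments with 8-fold usage at the estimated dispersion, and 10 of 10 at a dispersion of 0.05 (14129 genes). Depth was 20300468 to 21099972 reads per library, of which 2837 to 27161 were Ighv reads. Precision did not follow read number alone. The level SE was 1.95 for Ighv13-2, which had 1079 reads in WT 2. It was 0.36 for Ighv1-52, with 22.0 to 78.1 reads per library, and 1.24 for Ighv3-4, with 1 to 53.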

Additional observations from a re-analysis of the deposited data

Results flagged for a closer look

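Among 55 values examined in the 4 WT libraries, 3 had a library whose gap to its nearest neighbour, over the whole range, exceeded Dixon's 95% critical value. Chance gives about 1 such library in 20 groups. Ighv1-74 took 22.2% of Ighv reads in WT 3 against 0.236 to 1.55% in the other WT libraries (gap over range 0.940). Ighv14-4, which is 97.4% identical to Ighv14-1, took 0.258% in WT 4 against 1.78 to 1.87% in the others (0.946). Ighg2c was at 34.3 CPM in WT 1 against 105 to 115 CPM in the others (0.875), and WT 1 was also the lowest library in summed Ighv level. The 3 KO libraries were too few for this comparison.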

How the results depend on the processing

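The summed Ighv level kept its direction and stayed without overlap under each scaling tried, and its log2 difference was 1.19 to 1.78 with a library left out. The 4 level calls became 18 with DESeq2, 8 with no filter, and 2 each with RLE scaling, TMM without haemoglobin, immunoglobulin and mitochondrial genes, and limma on log2(TPM + 0.1) or log2(TPM + 1). They were 0 to 4 with a library left out. The 0 usage calls became 8 with DESeq2 and were 0 to 1 with a library left out. Replicate numbers did not pair the libraries (correlations of same-numbered libraries 0.11, -0.03 and -0.27). The replicate block, which drops WT 4, gave 4 level calls, none of them among the 4 of the report, and 0 usage calls. In that level fit 21 of 14143 tested genes were called.

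The exact permutation test of 3 against 4 libraries gives no p under 0.0571, so no share or index could pass 0.05. Group differences in share or index changed sign in these cases. With a library left out they ranged over -1.23 to 10.8 points (family 5), -0.0831 to 7.98 (family 8), -2.90 to 0.256 (family 11), -1.38 to 3.78 (family 14), -0.186 to 14.9 (middle part), -3.84 to 1.15 (Shannon number), -2.97 to 1.89 (10 largest) and -1.30 to 0.722 (segments at common depth). Without each library's largest segment they were -0.577 (family 8), 2.07 (family 11), 1.23 (Shannon) and 0.644 (inverse Simpson), and by TPM 0.646 (10 largest). Estimates of Dntt turned to 0.047 and 0.051 with the pseudocounts 0.1 and 1 and 0.13 with the replicate block, with -0.46 to 0.31 over left-out libraries, and of Myb to 0.020 with either pseudocount. The pre-B median was -0.51 with log2(TPM + 1). The cause of these changes was not tested. Reads per library limit the minor segments, and similar segments limit assignment.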
